A study of Rattus norvegicus with 4 samples.

Results

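The genes described here encode matrix metalloproteinases (MMPs) and their tissue inhibitors (TIMPs), as read by 1-colour Agilent arrays in NR8383 cells. The 10 genes are Mmp2, Mmp8, Mmp9, Mmp12, Mmp13, Mmp14, Mmp19, Timp1, Timp2 and Timp3. They were chosen by name, and each was found through array probes whose RefSeq transcript belongs to it. All 10 had a probe, 12 probes and 57 spots in all, out of 16581 genes with a symbol and 45598 probes. NR8383 is an established macrophage line of rat, started from cells washed out of the lung, and its flasks hold attached and floating cells. Every sample had been seeded for 48 h and had received carbon black Printex 90 at 0.9 cm2/cm2 for 4 h, and all came from cells at 20 passages. The 1 group held 4 biological replicates, 1 array each, and cells without particles were not analysed here. No value below is therefore a response to carbon black. The values are levels in exposed cells, and their spread between cultures. With 1 array per culture, that spread also holds differences between arrays, which cannot be told apart from it.

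MMPs are zinc proteases that cut collagen, elastin and other proteins outside the cell or at its surface. They are made as inactive proenzymes, and TIMPs bind their active site and block it. Macrophages are known for an elastase, Mmp12, and for the gelatinase Mmp9, and the balance of proteases to TIMPs in the lung has long been studied in emphysema and fibrosis.

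Every array carried the same 308 negative control spots, and the software marks a spot as well above background when its signal clears the local noise. Here a probe counted as detected on an array when at least 50% of its spots had that mark. A gene counted as detected on all arrays when 1 of its probes was. The lowest intensity of a marked spot was 22.3 on replicate 1, against 11.3, 10.8 and 12.1 on replicates 2, 3 and 4, so dim genes had to be brighter on replicate 1 to be marked. On that array 2.05% of spots lay on a local background above 40, which happened at 0 spots of the other arrays. A level is the log2 of the processed intensity after subtraction of the 75th percentile of its array, which lay at an intensity of 109, 93.7, 63.7 and 63.8 on replicates 1 to 4. A level of 0 is thus the 75th percentile. Binding strength differs between probes, so levels were compared between arrays and not between genes. Where a probe has several spots, the intensity given is the mean on the log2 scale, converted back. In RNA of a whole culture, fewer cells with a transcript and less transcript per cell cannot be told apart.

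Of the 10 genes, 5 were detected on every array, namely Mmp9, Mmp12, Mmp19, Timp1 and Timp2. Among all named genes the share was 47.9% (7947 of 16581), so the share here lay near that of the array as a whole. Mmp2 was detected on 3 arrays by 1 of its probes, and Mmp14 on 1 array. Mmp8, Mmp13 and Timp3 were detected on none, as were 44.0% of all named genes. By class, 3 of 7 proteases and 2 of 3 inhibitors had signal on every array.

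Promoter sequences are shown for pairs of genes of which 1 was detected and 1 was not. The set of rat promoter sequences used here (GRCr8) held 6 of the 10 promoters, without Mmp2, Mmp9, Mmp14 and Mmp19. The 250 bases before the start were searched on both strands for 4 motifs. TGANTCA is the site of the AP-1 factors Fos and Jun. The box TATAAA helps place the start of transcription. GGGCGG is bound by Sp1 at many promoters rich in G and C. For ETS factors only 1 form of their site was searched, GAGGAA, so sites with other letters were not counted. Capitals mark matches, no 2 matches overlapped, and an Sp1 match on the opposite strand reads CCGCCC. Mmp12 (chr8:12866402-12866651, plus strand) and Mmp13 (chr8:12782579-12782828, plus strand) lie on the same chromosome. Timp2 (chr10:104089215-104089464) and Timp3 (chr7:19459559-19459808) are on the minus strand of theirs.
Mmp12: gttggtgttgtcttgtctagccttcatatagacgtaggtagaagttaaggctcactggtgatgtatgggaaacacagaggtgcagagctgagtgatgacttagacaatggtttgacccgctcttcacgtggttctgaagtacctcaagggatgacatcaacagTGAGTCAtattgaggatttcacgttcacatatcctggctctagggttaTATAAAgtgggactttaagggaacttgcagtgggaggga
Mmp13: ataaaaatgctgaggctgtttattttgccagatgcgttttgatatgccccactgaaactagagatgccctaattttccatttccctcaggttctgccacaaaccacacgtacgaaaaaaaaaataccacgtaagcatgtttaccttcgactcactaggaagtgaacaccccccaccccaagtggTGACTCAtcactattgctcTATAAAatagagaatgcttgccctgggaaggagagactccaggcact
Timp2: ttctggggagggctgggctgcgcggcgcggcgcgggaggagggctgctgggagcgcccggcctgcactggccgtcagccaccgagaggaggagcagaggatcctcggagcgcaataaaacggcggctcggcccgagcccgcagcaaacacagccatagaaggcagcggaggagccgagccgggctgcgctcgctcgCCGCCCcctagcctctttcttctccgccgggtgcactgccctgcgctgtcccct
Timp3: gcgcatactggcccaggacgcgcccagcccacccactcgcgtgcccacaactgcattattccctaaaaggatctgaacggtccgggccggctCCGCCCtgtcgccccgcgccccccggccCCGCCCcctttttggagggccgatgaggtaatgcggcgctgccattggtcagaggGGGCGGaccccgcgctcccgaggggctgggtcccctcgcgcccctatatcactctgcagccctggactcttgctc

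Mmp12 and Mmp13 each held 1 AP-1 match and 1 TATA match. In Mmp12 the AP-1 match TGAGTCA stood at 87 to 81 bases before the start and the TATA match at 39 to 34. In Mmp13 the AP-1 match TGACTCA stood at 66 to 60 bases and the TATA match at 47 to 42. An AP-1 match was present in 6.34% of 33469 rat promoters of that length and a TATA match in 12.9%. Timp2 had 1 Sp1 match, Timp3 had 3 and Timp1 had 1, against 30.5% of all promoters with at least 1. Mmp8 had a TATA match alone. None of the 6 had the letters GAGGAA, which 23.3% of promoters held, and other forms of ETS site were not searched. Timp2 and Timp3 were rich in G and C, at 72.0% and 69.6%, with 27 and 23 CpG pairs. Mmp12 and Mmp13 had 45.6% and 44.4%, with 4 and 5 pairs, near the median over promoters of 51.2% and 5. Each pair held 1 gene detected on all arrays and 1 detected on none, and Timp2 and Timp3 differed in their number of Sp1 matches. Whether these letters bear on detection was not tested.

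The gelatinases, which cut denatured and basement membrane collagen, were Mmp9 and Mmp2. Mmp9 had processed intensities of 201, 189, 118 and 110 on replicates 1 to 4, which became levels of 0.88, 1.01, 0.89 and 0.79. The mean level was 0.89 ± 0.091 (SD, n = 4). The unscaled signals of replicates 3 and 4 were the lower ones, as was the 75th percentile of those arrays, and scaling brought the 4 cultures within 1.17-fold of each other. On every array Mmp9 stood at least 9.02-fold above the lowest marked spot, and the software's own error was between 10.1% and 10.3% of its signal.

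Mmp2 was near the limit of detection. Its probe with 10 spots had mean intensities of 23.6, 22.9, 11.8 and 14.5 on the 4 arrays. Of these spots, 3, 10, 6 and 7 were marked, 26 of 40 in all, so the probe missed the limit on replicate 1. The levels were -2.21, -2.03, -2.44 and -2.14, of which the first is only a bound. The brightest spots were 110 on replicate 1, where the local background was 57, and 61.9 on replicate 2, and the medians over spots were 19.8 and 21.2. A further Mmp2 probe with 1 spot read 44.3 on replicate 1 and 4.41, 4.18 and 4.42 on the others, and was marked on replicate 1 only. That spot also lay on a raised local background, of 45 against 31, 33 and 30 on the other arrays. The probes of Mmp2 thus disagreed on all 4 arrays, since the 1-spot probe was unmarked wherever the 10-spot probe was detected. If any probe may serve on each array, Mmp2 becomes the sixth detected gene.

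The collagenases Mmp8 and Mmp13, which can cut intact fibrillar collagen, were detected on no array. Mmp8, the collagenase of neutrophil granules, read 9.86, 2.33, 2.26 and 2.45 on the 4 arrays. Mmp13, the main interstitial collagenase of rodents, read 5.15, 2.46, 2.38 and 2.59. All 8 of these values were below the lowest marked spot of their array, and the software's error was as large as the signal for 7 of them. The Mmp8 value on replicate 1 was the exception, with an error of 49.0%, and the software marked it as positive and significant, a weaker mark. Levels of both genes are bounded from above by -2.29, -3.05, -2.56 and -2.40 on the 4 arrays.

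Mmp12, the macrophage elastase, differed most between cultures among the detected genes. Its intensities were 205, 127, 93.2 and 53.2 on replicates 1 to 4, each well above background and with a software error between 10.2% and 11.8%. The levels were 0.91, 0.44, 0.55 and -0.26, with a mean of 0.41 ± 0.49 (SD, n = 4). Replicate 1 was highest and replicate 4 lowest, 2.26-fold apart after scaling and 3.86-fold before. The local background at its spot was 29, 28, 26 and 29, so the high value on replicate 1 did not lie in the region of raised background. Mmp12 has 1 probe with 1 spot, so no second reading within an array is at hand. The pixel medians of that spot, before background subtraction, were 218.5, 142, 98 and 85. By that measure replicates 3 and 4 lay closer together than by processed intensity.

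**Figure D1:**
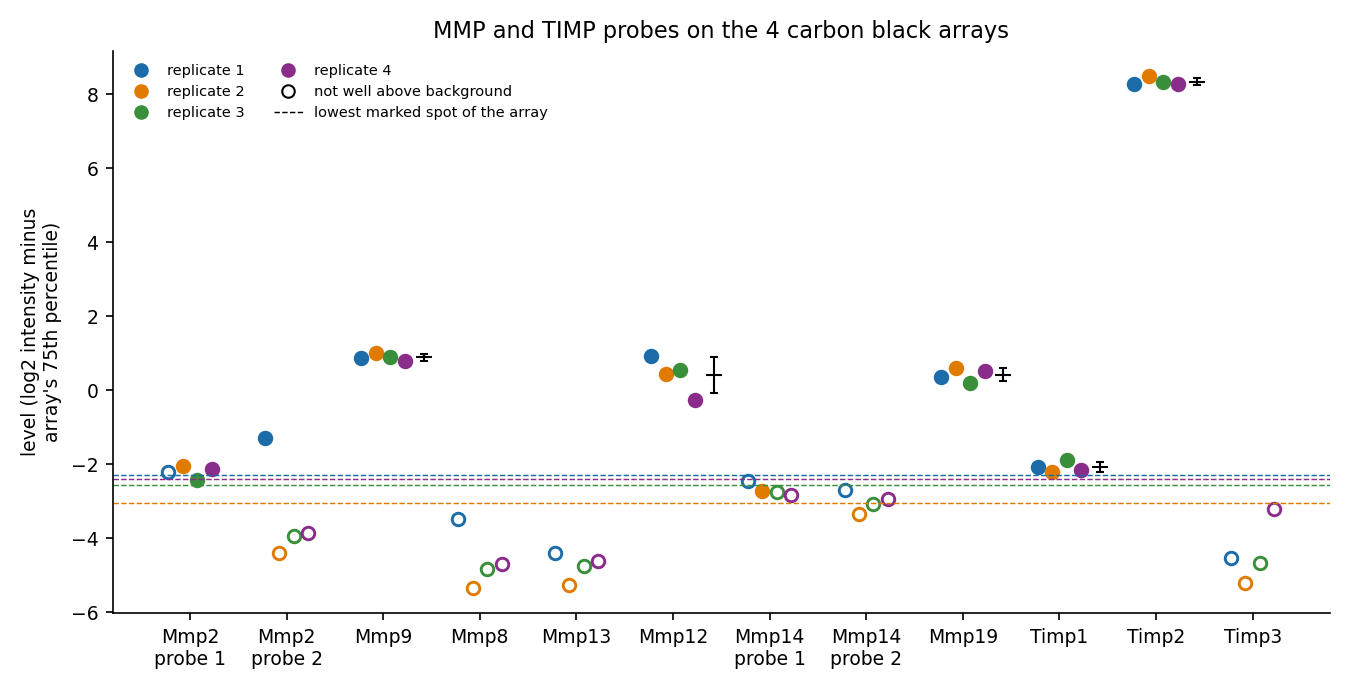
Level of each MMP and TIMP probe (log2 units above the 75th percentile of the array) on the 4 arrays, with mean and SD (black) for probes detected on all of them; open circles were not well above background and dashed lines mark the lowest marked spot of each array. Mmp12 ran from 0.91 on replicate 1 to -0.26 on replicate 4, whereas Mmp9 and Timp2 stayed within 1.17-fold and 1.16-fold; heights of different probes are not comparable.

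The spread between cultures was tested for each gene against genes of like brightness with a variance test in limma, adjusted by Benjamini-Hochberg over 14913 genes. Each culture had 1 array, so the test cannot separate cultures from arrays. Of the 6 members tested, 0 passed an adjusted p of 0.05, where 0.476% of all genes tested did. That count does not show that their spreads were alike, since in simulated data the test recovered 0 of 200 genes with a 4-fold SD. At an unadjusted p under 0.05, 1 member passed, Mmp12, where 5.06% of all genes did. The SD of Mmp12 of 0.49 was at the 93.3rd percentile of tested genes, whose median SD was 0.161, and it did not pass (adjusted p = 0.561, limma). Replicate 4 carried much of that SD under the main scaling. Without that replicate the SD fell to 0.248, with an adjusted p of 0.991 (limma), the upper end of a range from 0.200 over 15 alternatives, while without replicates 1, 2 or 3 it was 0.439, 0.601 and 0.590. The other tested members had SDs at the 16.5th percentile for Mmp9, the 19.6th for Timp2, the 38.5th for Timp1, the 53.7th for Mmp2 and the 55.7th for Mmp19.

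Differences between 2 genes on the same array do not depend on which percentile is subtracted from it. Another background correction or normalization can change them. Mmp12 minus Timp2 ranged over 1.19 log2 units across the 4 arrays (SD 0.497), a 2.28-fold shift in the ratio of elastase to inhibitor signal. It was highest on replicate 1 and lowest on replicate 4 under the main scaling. With normexp background correction on pixel medians, Mmp12 was at 0.55, 0.20, 0.16 and -0.059 and Timp2 at 7.59, 7.73, 7.34 and 7.28. There the difference was highest on replicate 1 but lowest on replicate 2. Under the main scaling, Mmp9 minus Timp2 ranged over 0.11 log2 units (SD 0.048), and Mmp19 minus Timp2 over 0.37 (SD 0.154). Over 14912 tested genes the median SD of the difference to Timp2 was 0.162 and the 95th percentile 0.585, above the value of Mmp12. Against the 4 other detected members, Mmp12 had ranges from 1.08 with Mmp9 to 1.34 with Mmp19, which restate its own spread. The 6 pairs without Mmp12 had ranges from 0.11 to 0.70.

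**Figure D2:**
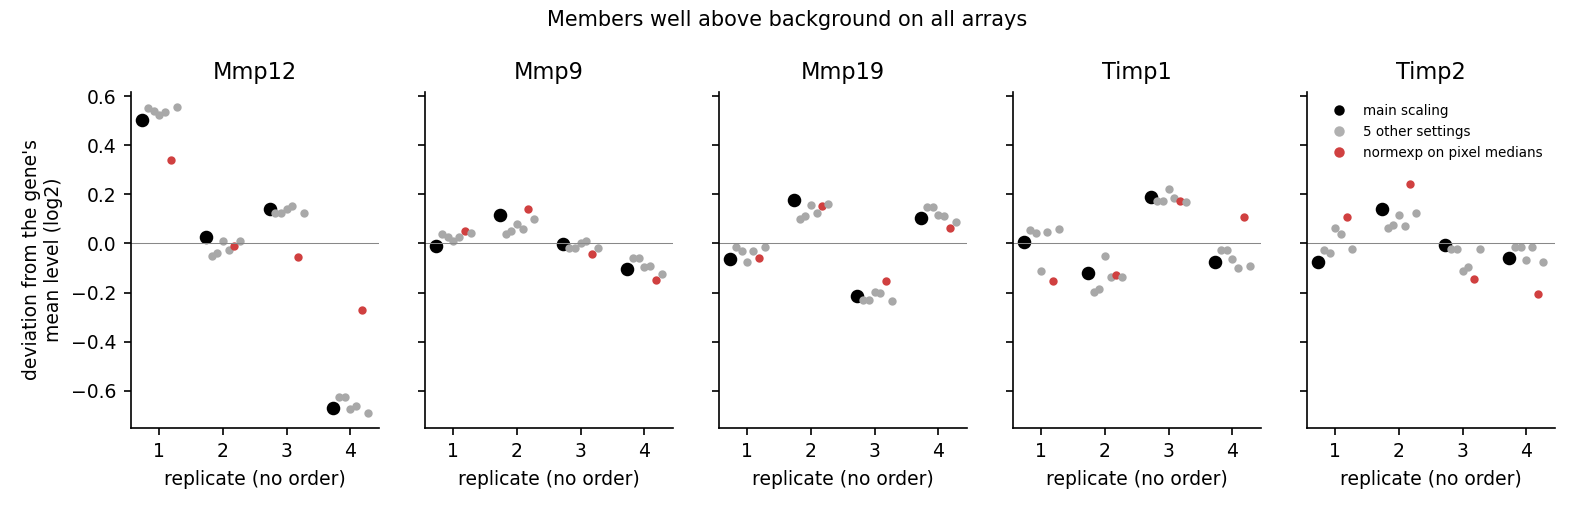
Deviation of each replicate from the gene's mean level (log2) for the 5 genes detected on all arrays, under the main scaling (black), 5 other settings (grey) and normexp background correction on pixel medians (red). Mmp12 was highest on replicate 1 and lowest on replicate 4 under all 7. Its SD was 0.49 under the main scaling and 0.252 under normexp, which included an offset of 50.

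Mmp14, a membrane-anchored protease that activates proMmp2 at the cell surface, was read by a pair of probes with 10 spots each. The brighter probe had mean intensities of 20.1, 14.3, 9.47 and 9.04 on the 4 arrays, with 1, 6, 1 and 0 spots marked, or 8 of 40. The other read 16.8, 9.26, 7.52 and 8.28, with 4 of 40 spots marked. Both probes thus lay at the edge of the background, and only replicate 2 reached the limit of 50% of spots, on the brighter probe. The software nevertheless marked all 40 spots of each Mmp14 probe as positive and significant, a weaker mark, as it did all 40 spots of the 10-spot Mmp2 probe. One spot of the brighter probe on replicate 1 read 72.7 over a local background of 55.

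Mmp19, a secreted MMP that cuts basement membrane proteins, had clear signal. Its intensities were 139, 141, 73.1 and 91.2, which gave levels of 0.35, 0.59, 0.20 and 0.52. The mean level was 0.41 ± 0.18 (SD, n = 4), with a 1.31-fold range between replicates 2 and 3. It stood at least 6.23-fold above the lowest marked spot on each array.

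Among the inhibitors, Timp2 had strong signal, Timp1 was near the limit and Timp3 was detected on no array. Timp2, which blocks most MMPs and also takes part in the activation of proMmp2 by Mmp14, had mean intensities of 33575, 33476, 20539 and 19835. All 40 of its spots were marked and none was saturated, and its mean over spots was at least 1505-fold above the lowest marked spot on each array. Its levels were 8.27, 8.48, 8.33 and 8.28, with a mean of 8.34 ± 0.098 (SD, n = 4). The 10 spots within an array differed by an SD of between 0.035 and 0.075 log2 units. The SD between cultures was 0.035 without replicate 2, 0.042 with the percentile over detected probes and 0.211 with normexp on pixel medians.

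Timp1, a secreted inhibitor that many inflammatory signals raise, was dim. The mean intensities were 26.0, 20.4, 17.2 and 14.4, with 5, 10, 9 and 7 of 10 spots marked. Replicate 1 thus met the limit of 50% exactly. The levels were -2.07, -2.20, -1.89 and -2.15, with a mean of -2.08 ± 0.14 (SD, n = 4). Without replicate 3, the highest, the SD was 0.064. Single spots of 1 array differed by an SD of between 0.283 and 0.747 log2 units. The largest of these came from a single spot of 70.1 on replicate 3, where the median spot was 14.9. When every spot had to be marked, or the signal had to pass the 99th percentile of negative control spots, Timp1 was no longer detected on all arrays and the count was 4.

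Timp3, which is held in the matrix and also blocks ADAM proteases, read 4.72, 2.56, 2.51 and 6.90 and was marked on no array. Replicate 4 was the highest of the 4, but below the lowest marked spot there, so this difference cannot be read.

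**Figure D3:**
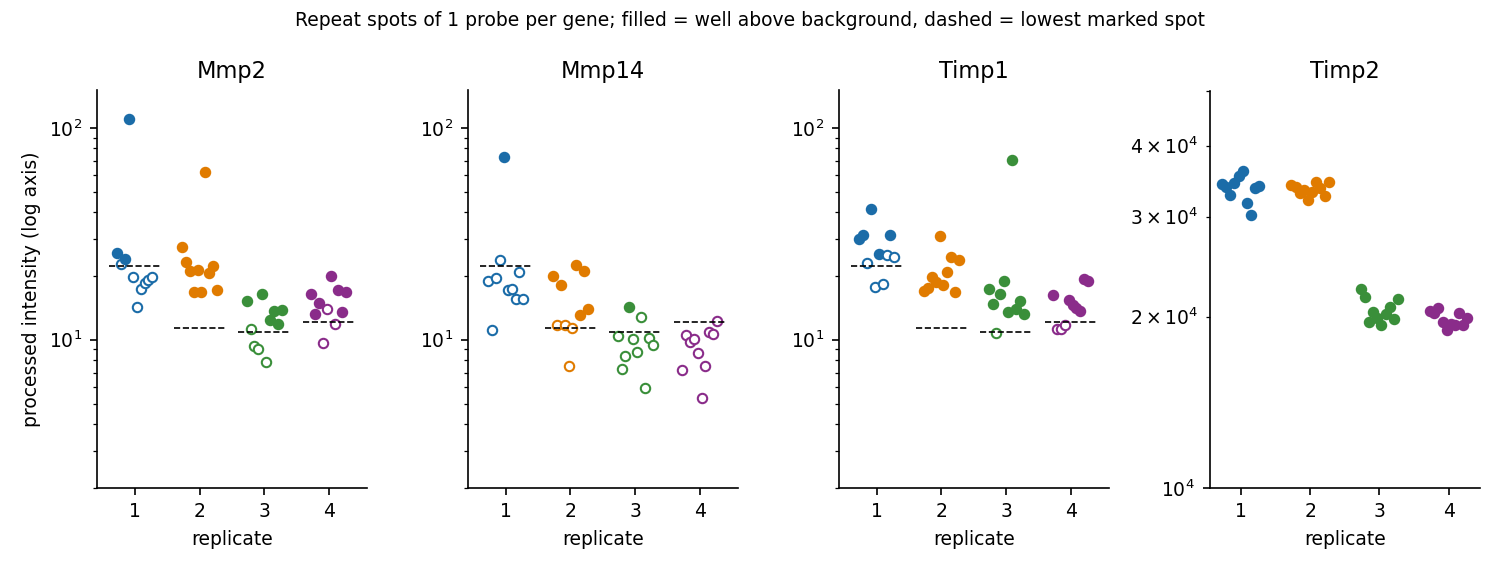
Processed intensity (log axis) of the 10 repeat spots of 1 probe each for Mmp2, Mmp14, Timp1 and Timp2 on the 4 arrays; filled spots were well above background, and dashed lines mark the lowest marked spot (off scale for Timp2). Mmp2, Mmp14 and Timp1 spots scattered around the limit, with 26, 8 and 31 of 40 marked, while Timp2 spots lay between 18973 and 36150.

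Mmp12, Mmp13 and Mmp8 belong to a run of neighbouring MMP genes on rat chromosome 8. In the RefSeq annotation (GRCr8) this stretch held 10 MMP genes and 2 pseudogenes, in the order Mmp13, Mmp12, Mmp1b, Mmp3, Mmp1, Mmp10, Mmp8, Mmp27, Mmp20 and Mmp7. Of the 9 with a probe, 2 were detected on all arrays, Mmp12 and Mmp7, and 6 on none. Among all named genes the shares were 47.9% and 44.0%. Mmp7, or matrilysin, a small MMP best known from epithelia, had levels of 3.30, 3.53, 3.30 and 3.17 (mean 3.32 ± 0.15, SD, n = 4). Mmp3, or stromelysin 1, was marked on replicate 1 only, by a spot of 91.3 over a local background of 53.5. Its other probe read 4.66 and 5.16 on that array, below the lowest marked spot. Mmp13 and Mmp12 are next to each other among the coding genes of the stretch, and only Mmp12 had signal.

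Other genes of the pathway were taken from lists chosen with earlier results of these data known. Of 14 other MMP genes with a probe, 3 were detected on all arrays, namely Mmp7, the membrane-type Mmp15 (3.30 ± 0.22, SD, n = 4) and Mmp24 (0.28 ± 0.077). Mmp3 was detected on 1, and 10 on none, among them Mmp10 and Mmp11, and Mmp25 was not matched to a probe. Of 4 other inhibitors, 0 were detected on any array (Timp4, A2m, Spock1 and Pzp), and Reck was not matched. Of 12 proteases that can activate MMPs, 3 were detected on all arrays, which were the proprotein convertases Furin and Pcsk5 and plasminogen (Plg). Plau, the urokinase gene, was detected on 1 array, as were Hpn and Pcsk7, and Plat with 5 others on none.

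Of 10 cell surface partners and regulators, 7 had signal on all arrays, beside 47.9% of all named genes. They included the urokinase receptor gene Plaur, the docking receptor gene Cd44, the MMP inducer gene Bsg and the clearance receptor gene Lrp1. Lcn2, whose product binds Mmp9, was at 6.58 ± 0.14 (SD, n = 4), and Cav1 and Serpinb2 were among those detected on none. Of 9 ADAM and ADAMTS genes, Adam10, Adam17 and Adam15 were detected on all arrays, Adamts1 on 2, Adamts4 on 1, and Adam9, Adam19, Adamts5 and Adamts9 on none, while Adam8, Adam12 and Adam28 were not matched. Of 14 genes of transcription factors known at MMP promoters, 12 were detected on all arrays, including Fos, Jun and Ets2, and Ets1 and Fosl1 on none. Of 12 matrix substrate genes, Lamc1, Dcn and Sparc had signal on all arrays, and 9 on none, among them Eln, Col4a1, Fn1 and Col1a1. In these lists 0 tested genes passed the variance test after adjustment, and 0 had an unadjusted p under 0.05 (limma). The median SD of tested genes ran from 0.094 in the ADAM and ADAMTS list to 0.203 among the activating proteases, beside 0.161 over all genes tested. Of the AP-1 factors, Jun stood at 3.07 ± 0.088 (SD, n = 4), and Fos at -1.09 ± 0.32. On replicate 4 Fos had its lowest level, -1.57, while Fosb, Junb and Jund had their highest there, at -1.28, 1.78 and 5.32. Fosb and Junb were close to that on replicate 2, at -1.31 and 1.74, and Jun was highest on replicate 3, at 3.18. Fosl2 was at 0.75 on replicates 1 and 4, and at 0.66 and 0.51 on replicates 2 and 3.

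Cell type markers were also read, from lists chosen with earlier results of these data known, so they do not check the macrophage label. All 6 macrophage markers, Cd68, Ptprc, Spi1, Cd14, Csf1r and Msr1, were detected on all arrays, where 47.9% of all named genes were. Of 6 fibroblast markers Dcn alone was, while Col1a1, Col1a2, Col3a1, Lum and Pdgfra were on none. Of 6 neutrophil markers with a probe, Camp was detected on all arrays, S100a8 on 2, and S100a9, Elane, Ngp and Csf3r on none. S100a8 had an unadjusted p under 0.05 and did not pass after adjustment (adjusted p = 0.0718, limma). The test included its readings on the arrays where it was not detected. Of 6 epithelial markers, including Epcam, Cdh1, Krt8 and Krt18, 0 were detected on any array.

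**Figure D4:**
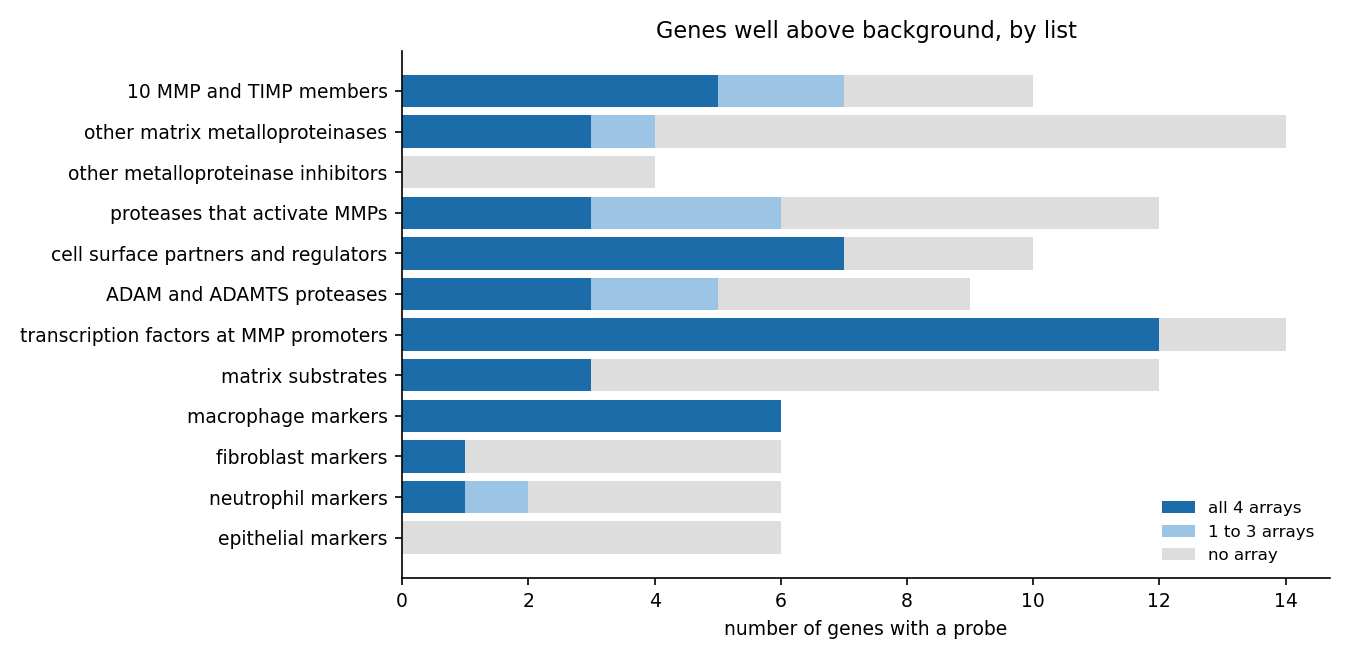
Number of genes with a probe detected on all 4 arrays, on 1 to 3 or on none, for the MMP and TIMP genes and each comparison list. The MMP and TIMP genes split 5, 2 and 3, other MMPs 3, 1 and 10, and macrophage markers 6, 0 and 0.

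For the detected members whose SD exceeded the median of tested genes, Mmp12 and Mmp19, the named genes most like them over the 4 arrays were listed. Likeness was the root mean square difference between deviations from the mean, over 7945 genes. For Mmp12 these were Tmem218 (0.066 log2 units), Tcf3 (0.088) and Snx11 (0.090), where the median gene differed by 0.438. For Mmp19 they were Ddx19b (0.010), Ptpdc1 (0.010) and Sephs1 (0.025), with a median of 0.181. Each name is a description over 4 arrays, with no test. The nearest of 7945 genes fall below the median by the way they were picked.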

How the data were processed

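RNA of 4 carbon black cultures was hybridised to 1-colour Cy3 arrays, all on 1 slide with 1 scan. The deposited files hold intensity per spot, background-subtracted and detrended by Agilent Feature Extraction 11.0.1.1, per the file headers, with other marks of 0 or 1 for spot quality. The deposited intensities were not normalized between arrays, and precision is limited by there being 4 arrays. Probe accessions without versions were matched to RefSeq symbols (GRCr8), which named 21109 probes (46.3%). Log2 intensity was averaged over spots, leaving out non-uniform ones, and each array's 75th percentile was subtracted. 12 probes lost 1 array or more this way, none of them of a member. The probe with the highest mean stood for a gene.

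The variance test took genes with signal on at least 2 arrays (limma 3.58.1, R 4.3.3): an intercept fit, the residual variance against a squeezeVar prior with trend, a one-sided F test, Benjamini-Hochberg adjustment, threshold 0.05. In simulated data with the SD of 200 genes raised, it recovered 0 at 4-fold, 58 at 8-fold and 112 at 16-fold. The members, lists and tests were chosen with earlier results of these data known. Text names all members, the first 4 genes of each list, genes behind counts of 5 or fewer, and for 2 members the 3 nearest genes. Alternatives changed the detection mark, scaling, background correction, filter, prior and arrays. The planned correction on mean pixel signals used pixel medians, the column at hand. An offset of 50 was added to each intensity under normexp, and its part in the SDs there was not tested. One gene of the surface partner list is counted but not reported by name here.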

Additional observations from a re-analysis of the deposited data

How the results depend on the processing

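No paired analysis was possible because the design analysed here has 1 group. The count of 5 detected members was 7 with the weaker mark, 6 with any probe on each array, 4 with every spot marked, 4 above the negative control percentile, and between 5 and 6 without 1 replicate. The share of all named genes was 47.9%, and under those rules 56.2%, 48.0%, 47.8%, 48.3% and between 47.9% and 49.0%. The count of members past the variance test was 0 under each of 15 alternatives, which says nothing about stability with 4 arrays. The adjusted p of Mmp12 lay between 0.200 and 0.991 (limma). The SD of Mmp12 lay between 0.248 and 0.601, and was 0.252 with normexp on pixel medians. The normexp setting, the use of any probe on each array and the omission of spots on raised local background, which left the count of detected members at 5, were chosen after seeing the data. Mmp2 had an SD of 0.696 when its probes were averaged, against 0.171. Over all genes the count of 71 past the test was 0 with the percentile over detected probes, 1 over all spots, 1 with quantile normalization, 1 with cyclic loess, 235 with normexp, 356 without the filter, 207 with a robust prior and 0 without trend, and between 27 and 161 without 1 replicate. The cause was not tested. Scaling to detected probes moved the level of Mmp12 from 0.41 to -3.11 by shifting the zero of every gene.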

Other observations

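Neutrophil granules hold Mmp8, Mmp9, the cathelicidin Camp and the lipocalin Lcn2, and these genes split in the macrophage line. Camp had levels of 1.27, 1.08, 1.01 and 0.60 on replicates 1 to 4 (mean 0.99 ± 0.28, SD, n = 4), and Lcn2 and Mmp9 were detected on all arrays, while Mmp8, Elane and Ngp were detected on none. Camp, like Mmp12, was highest on replicate 1 and lowest on replicate 4, with a spread short of the threshold (adjusted p = 0.987, limma). Lcn2 was at 6.39, 6.71, 6.59 and 6.64, lowest on replicate 1. S100a8 was at -0.27 and -0.40 on replicates 2 and 4. On replicates 1 and 3 it read -4.31 and -2.58, below the lowest marked spot. Its levels there are bounded from above by -2.29 and -2.56.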
